A study of Mus musculus with 40 samples.

Results

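Oligodendrocytes, the cells that wrap axons in myelin, and the progenitors that give rise to them were followed through 9 genes of their lineage: Olig1, Olig2, Sox10, Nkx2-2, Pdgfra, Cspg4, Gpr17, Ugt8a and Ermn. The genes were found by matching NCBI gene IDs to symbols, and all 9 have a row in the deposited expression tables, which list 17974 genes in all. The study asked what an added copy of Chd8 does to the embryonic mouse forebrain. RNA sequencing of polyadenylated RNA compared wild-type (WT) males with males labelled Chd8 KI (KI) on embryonic days E14.5 and E18.5, with 5 libraries of each genotype at each stage. The labels give no other allele and no treatment. They do not say where the added copy lies or what drives it, nor whether libraries represent separate litters, so p-values measure the spread between these libraries. ChIP-seq libraries for CHD8 (3 per genotype, with 3 inputs each) and ATAC-seq libraries (4 per genotype), all at E14.5, were not analysed here.

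In the mouse forebrain the first oligodendrocyte progenitors arise in the ventral ventricular zone under Sonic hedgehog signalling, migrate dorsally, and are followed later by progenitors of more dorsal origin. Progenitors divide in response to PDGF-AA through the receptor encoded by Pdgfra. Differentiation proceeds through a short-lived Gpr17 stage to cells that make myelin lipids and proteins, most of which are made after birth. The OLIG basic helix-loop-helix factors and SOX10 act at several of these steps.

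Each stage has 1 deposited table, the authors' DESeq2 comparison of both genotypes. Each table gives a mean normalized count over all libraries of the stage, a log2 fold change with its standard error (SE), a Wald p-value and an adjusted p. A gene is called changed where the adjusted p is under 0.05, and positive values are taken to mean higher expression in KI, because Chd8 itself is positive at both stages; Chd8 is therefore no independent check of the labels. In the authors' deposited table Chd8 had a log2 fold change of 0.64 (SE 0.0313) at the younger stage and 0.51 (SE 0.0378) at the older one, 55.8% and 42.5% above WT. There are no values per library in the tables used here, so the count in WT and in KI was worked out from the mean normalized count and the fold change, and is called the implied count below. The depth per library is unknown. The median SE over all genes tested was 0.0684 at E14.5 and 0.0727 at E18.5, while that of the 9 genes, most of which are weakly expressed, was 0.149 and 0.101.

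Most of the progenitor genes had higher levels at E18.5 than at E14.5, while Ermn and Ugt8a, 2 genes of maturing cells, did not. Levels were set across the tables by dividing each gene's ratio of mean normalized counts by the median ratio over 15415 shared genes, 1.11. The tables were normalized separately, so this is a description without a test. Gpr17 had the steepest increase, from a mean normalized count of 51.5 to 480, which is 8.44-fold relative to the median gene. Nkx2-2 followed at 6.61-fold, Sox10 at 6.46-fold, Olig1 at 6.13-fold and Pdgfra at 5.68-fold. These 5 genes stood at or above the 98.3rd percentile of all shared genes. Cspg4 was 2.53-fold higher and Olig2 1.25-fold higher, the latter at the 68.5th percentile. Ermn and Ugt8a went the other way, to 0.746 and 0.606 of their E14.5 level. These 2 do not stand for later genes at large. In wider lists described further on, 20 of 23 myelin genes rose relative to the median gene (median 1.73-fold). So did 9 of 13 committed-cell genes (median 1.27-fold) and 19 of 25 progenitor genes (median 1.86-fold). These counts favour rises, because the lowest mean normalized count listed was 0.987 at E14.5 and 9.70 at E18.5. A gene well below 9.70 at E14.5, such as Mag (6.44) or the member Nkx2-2 (4.87), could be shared only by rising. Mobp, at 2.03 at E14.5, has no row at E18.5 and is not counted. Neighbours in this order from Nkx2-2 to Pdgfra lie close together, and without values per library their order has no error. Lengths of the transcripts were not used here, so levels are not compared between genes.

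**Figure D1:**
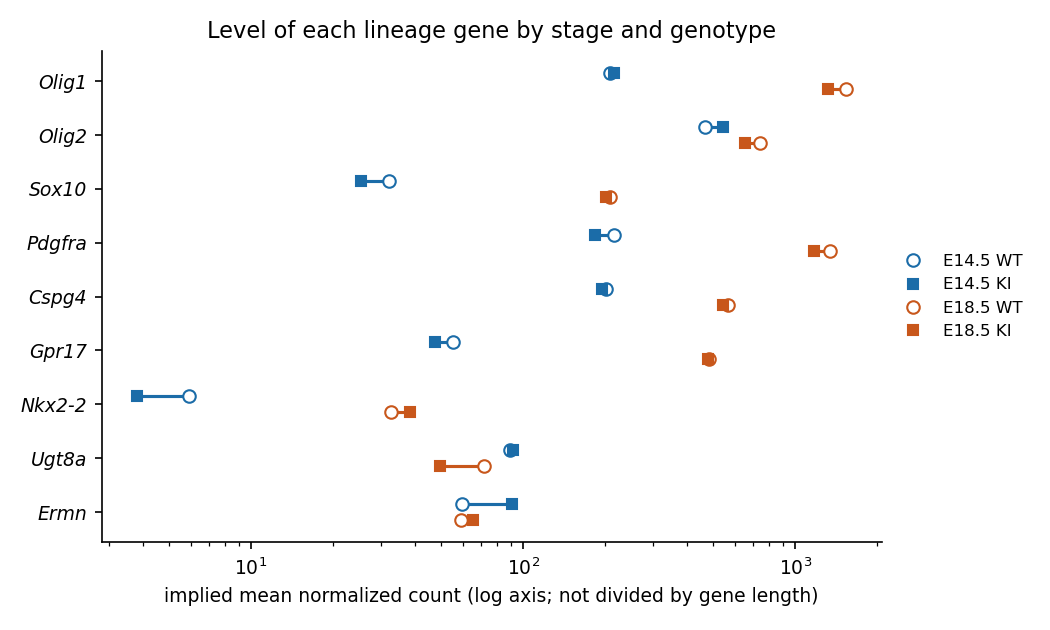
Implied mean normalized count (log axis, not divided by gene length) of each of the 9 genes in WT (open circles) and KI (filled squares), at E14.5 in blue and E18.5 in orange. Stage separates the points of Olig1, Sox10, Pdgfra, Gpr17 and Nkx2-2 far more than genotype does. For Ermn, WT (59.8) and KI (91.3) lie further apart at E14.5 than at E18.5 (59.3 and 65.3).

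Several defining markers of myelinating cells were near or below detection at both stages. Mag, a myelin adhesion protein, had a mean normalized count of 6.44 at E14.5 and 13.2 at E18.5 by the authors' deposited table, and Mobp had 2.03 at E14.5 and no row at E18.5. Opalin, Fa2h, Aspa and Klk6 had no row in either table. Mog stood out from these, with a mean normalized count of 248 at E14.5 and 566 at E18.5 by the authors' deposited table, and Mbp, which has transcripts outside this lineage, was at 500 and 685.

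RefSeq promoter sequences (build GRCm38.p6, the assembly of mm10) were at hand for 6 of the 9 genes. The 250 bases before the transcript start used in the RefSeq promoter table are shown for 3 of them, each for its expression result described further on: Ermn, the member called changed at E14.5, Olig2, whose log2 fold change differed most between the stages by its p, and Ugt8a, which had the lowest log2 fold change at E18.5. They lie at chr2:58052865-58053114 (minus strand), chr16:91225300-91225549 (plus strand) and chr3:125938653-125938902 (minus strand). The Ugt8a start in that table lies within the annotated gene, so 30 bases of its window fall inside the gene's span. Capitals mark matches, on either strand, to the E-box CANNTG, the CCAAT box (CCAAT), the SOX motif AACAAT, the POU octamer ATGCAAAT and the TATA motif TATAAA, none of which overlapped another in these windows.
Ermn: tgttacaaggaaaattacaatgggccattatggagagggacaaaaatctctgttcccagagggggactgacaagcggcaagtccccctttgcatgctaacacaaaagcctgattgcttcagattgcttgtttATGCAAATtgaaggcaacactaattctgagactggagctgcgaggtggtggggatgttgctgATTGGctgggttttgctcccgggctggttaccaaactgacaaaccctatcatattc
Olig2: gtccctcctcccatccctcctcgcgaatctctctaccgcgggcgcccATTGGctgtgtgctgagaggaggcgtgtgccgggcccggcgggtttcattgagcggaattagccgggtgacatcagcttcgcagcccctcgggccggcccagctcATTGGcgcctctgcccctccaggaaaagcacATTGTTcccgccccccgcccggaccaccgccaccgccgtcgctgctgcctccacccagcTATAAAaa
Ugt8a: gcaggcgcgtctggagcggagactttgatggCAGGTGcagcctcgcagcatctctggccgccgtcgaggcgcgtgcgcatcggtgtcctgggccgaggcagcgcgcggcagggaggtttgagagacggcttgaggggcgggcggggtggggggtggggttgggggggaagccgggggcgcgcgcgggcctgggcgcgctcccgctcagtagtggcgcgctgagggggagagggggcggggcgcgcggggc

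The 3 windows differ in composition. That of Ugt8a had a GC content of 76.8% and 32 CpG dinucleotides, that of Olig2 66.8% and 22, and that of Ermn 47.2% and 3, against medians of 52.4% and 6 over 32851 windows. The Ermn window held 1 octamer, starting 118 bases before the start site, a motif found in 1.60% of all windows, and 1 CCAAT box, found in 33.8%. The Olig2 window held 2 CCAAT boxes, 1 SOX motif (in 9.42% of windows) and a TATA motif (in 12.4%). The Ugt8a window held 1 E-box, a motif found in 66.2% of windows. These matches describe letters, and the octamer was searched after the Ermn sequence had been read.

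Of the transcription factors, Olig1 and Olig2 were lower in KI at E18.5 by similar amounts, and Olig2 was higher at E14.5, none of these differences passing over all genes. The genes encode neighbouring, closely related factors: Olig2 specifies progenitors, and Olig1 is needed mainly for their maturation. Both lie on chromosome 16 (Olig2 at 91225550 to 91228677 and Olig1 at 91269769 to 91271939 in GRCm38), 41092 bases apart. For Olig2 the implied count was 464 in WT and 543 in KI at E14.5, then 744 in WT and 651 in KI at E18.5. The implied KI count differed from WT by 17.1% at the younger stage and by −12.5% at the older one. The authors' deposited table gives Olig2 log2 fold changes of 0.23 (SE 0.0782, p = 0.00359, adjusted p = 0.126, DESeq2) and −0.19 (SE 0.0718, p = 0.00716, adjusted p = 0.598). For Olig1 the implied counts were 208 in WT and 215 in KI at E14.5, which differ by less than their error, and 1540 and 1322 at E18.5. Its log2 fold changes in the authors' deposited table were 0.04 (SE 0.110, adjusted p = 0.937) and −0.22 (SE 0.0597, p = 0.000228, adjusted p = 0.141, DESeq2). By its unadjusted p Olig1 ranked 22 of 13601 genes at E18.5, a stage at which 9 genes passed. In bulk tissue, fewer cells of a type and less RNA per cell cannot be told apart.

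Sox10 and Nkx2-2 had wide intervals at both stages that include differences as large as those of the OLIG genes. SOX10 drives myelin gene transcription and NKX2-2 promotes the onset of differentiation. Sox10 (chromosome 15, 79154913 to 79164490) had implied counts of 32.1 in WT and 25.3 in KI at E14.5 and of 209 and 201 at E18.5. The authors' deposited table gives it −0.34 (SE 0.270, adjusted p = 0.681) and −0.05 (SE 0.151). Nkx2-2 (chromosome 2, 147176485 to 147195434) had implied counts of 5.93 in WT and 3.81 in KI at E14.5, where the authors gave no adjusted p, and of 32.6 and 38.5 at E18.5. The authors' deposited table gives Nkx2-2 −0.64 (SE 0.631) and 0.24 (SE 0.25) at the respective stages. The 95% interval ran from −1.87 to 0.60 at E14.5 and from −0.25 to 0.73 at E18.5. NKX2-2 also marks cells of the diencephalon, and the other 4 tested genes of a diencephalon list were above 0 at E18.5, from 0.12 for Lhx9 to 0.70 for Gbx2 in the authors' deposited table. Sim1 and Otp, genes of that list without an adjusted p at E18.5, were at −0.43 (SE 0.343) and −0.14 (SE 0.291) in the authors' deposited table. The summed implied count of the list, Nkx2-2 included, was 606 in WT and 690 in KI at E18.5, and its part in the Nkx2-2 value was not tested.

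**Figure D2:**
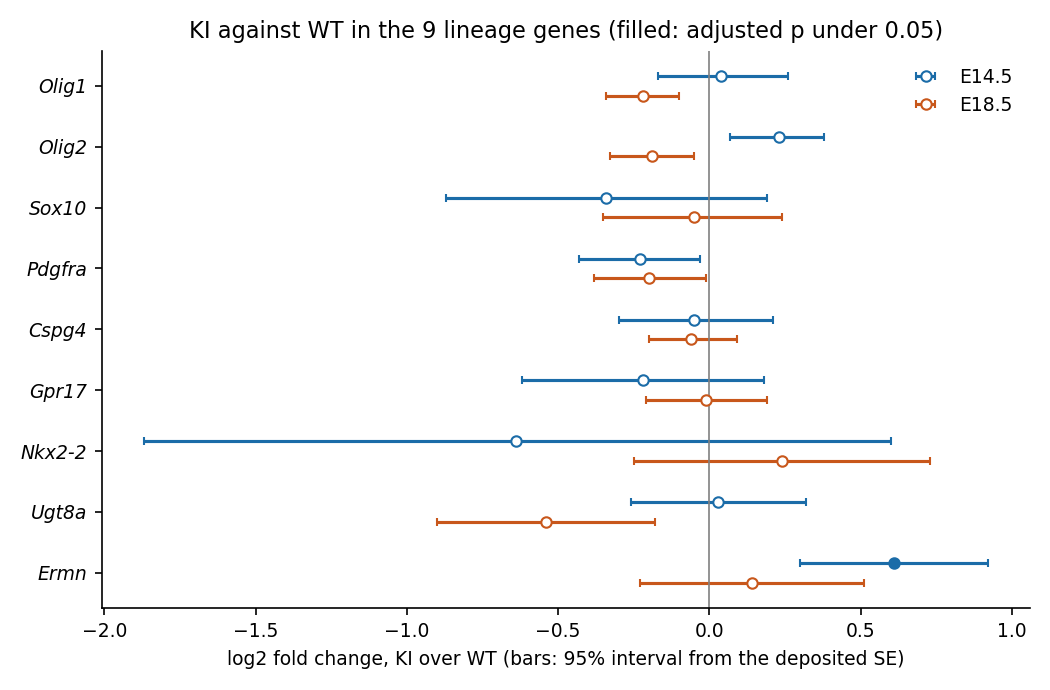
Log2 fold change of KI over WT (horizontal axis) for the 9 genes at E14.5 (blue) and E18.5 (orange), with 95% intervals from the deposited SE. Ermn at E14.5, at 0.61, is the filled point, called at an adjusted p under 0.05, and Olig2 has intervals on opposite sides of 0 at the 2 stages.

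Among the surface proteins of progenitors, Pdgfra was lower in KI at both stages by about the same fraction, without passing over all genes, whereas Cspg4 and Gpr17 were close to 0 at E18.5. Pdgfra (chromosome 5, 75151322 to 75198206) had implied counts of 216 in WT and 184 in KI at E14.5 and of 1341 and 1171 at E18.5. In both tables of the authors the deposited log2 fold change was near −0.2, namely −0.23 (SE 0.103, p = 0.0269, adjusted p = 0.334, DESeq2) and −0.20 (SE 0.0932, p = 0.0357, adjusted p = 0.805). The 2 stages share no library, and the difference between their log2 fold changes was 0.03 (95% interval −0.24 to 0.30).

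Pdgfra is also made by meningeal fibroblasts, so a list of their markers was read beside it. At E14.5, 5 of the 6 tested genes of that list were above 0, with a median of 0.34, and Pdgfra was the one below. At E18.5, 8 of the list's 12 genes had no deposited p at all, out of 85 genes without one in that table, and the median SE of the list was 1.16. The part of these cells in the Pdgfra value was not tested. Among the ligands of the receptor, Pdgfa was at 0.01 (SE 0.126) and Pdgfc at −0.07 (SE 0.0948) at E14.5 in the authors' deposited table. The authors' deposited table for E18.5 has them at 0.05 (SE 0.0903) and 0.08 (SE 0.0926).

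Cspg4, the gene of the NG2 proteoglycan, lies on chromosome 9 (56865104 to 56899870). Its implied counts were 201 in WT and 195 in KI at E14.5 and 564 and 542 at E18.5. The log2 fold changes in the authors' deposited table were −0.05 (SE 0.130, adjusted p = 0.943) and −0.06 (SE 0.0757), and the 95% interval at E18.5 reached from −0.20 to 0.09. Pericytes also make NG2. Of 10 pericyte markers, Cspg4 included, 6 were above 0 at E18.5 with a median of 0.05. At E14.5, 2 of the 8 tested were above 0 and 6 below, with a median of −0.05 and a summed implied count of 3138 in WT and 3297 in KI. Notch3, a Notch receptor of mural cells and of progenitors, was the one that passed at that stage, at 0.20 (SE 0.0505, adjusted p = 0.0120) by the authors' deposited table.

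Gpr17, a receptor of cells about to differentiate that holds them back from myelination, lies on chromosome 18 (31942999 to 31949890). It went from implied counts of 55.4 in WT and 47.6 in KI at E14.5 to 482 and 479 at E18.5. The authors' deposited table gives Gpr17 −0.22 (SE 0.203, adjusted p = 0.748) and then −0.01 (SE 0.101). The interval at E18.5, −0.21 to 0.19, leaves room for a difference of the size seen in Pdgfra. The annotated span of Gpr17 overlaps that of Lims2, which had mean normalized counts of 11.9 and 39.9 in the authors' deposited table, and whether the authors counted by strand is not given in the sources used here.

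Of the genes of later stages, Ermn was higher in KI at E14.5 and Ugt8a lower at E18.5. Ermn encodes ermin, a cytoskeletal protein of myelinating oligodendrocytes, and is the one member called changed: it rose in KI at E14.5. Its implied count was 59.8 in WT and 91.3 in KI, 52.7% above WT, and the authors' deposited table gives 0.61 (SE 0.160, p = 0.000134, adjusted p = 0.0169, DESeq2). The 95% interval ran from 0.30 to 0.92. By log2 fold change Ermn ranked 25 from the highest of 13417 genes tested. At E18.5 the implied counts were 59.3 and 65.3, and the log2 fold change was 0.14 (SE 0.187) by the authors' deposited table. The rise rested on few reads: if normalized counts are taken as raw counts, counting error makes up about 45.1% of the squared SE at E14.5. The call ended where Benjamini-Yekutieli adjustment (adjusted p = 0.171) or Wald statistics rescaled to their own spread (adjusted p = 0.211) were used. Of the myelin genes, Mag had a mean normalized count of 6.44 and Mobp of 2.03 at E14.5, though Mog had 248. Which cells of the forebrain gave the RNA of Ermn or of Ugt8a was not tested.

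Ermn lies on chromosome 2 (58045115 to 58052864) with no overlapping gene in the annotation. The nearest genes measured at both stages, Acvr1c at 214589 bases and Gpd2 at 674396 bases, did not pass, at 0.10 (SE 0.170) and −0.15 (SE 0.0628) at E14.5 by the authors' deposited table.

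Ugt8a encodes the enzyme that makes galactosylceramide, a main lipid of myelin, and lies on chromosome 3 (125865272 to 125938682). At E14.5 it had implied counts of 89.5 in WT and 91.5 in KI and a log2 fold change of 0.03 (SE 0.149, adjusted p = 0.965) by the authors' deposited table. At E18.5 the implied counts were 71.8 in WT and 49.4 in KI, a difference of −31.2%. The log2 fold change was −0.54 (SE 0.183, p = 0.00314, adjusted p = 0.448, DESeq2) by the authors' deposited table, the sixth lowest of 13601 genes tested, and it did not pass. Its span overlaps the long noncoding RNA gene Gm40145, which has no row in the tables. Its measured neighbours on the chromosome, Ndst4 and Camk2d, were at 0.38 (SE 0.170) and 0.18 (SE 0.0770) at E18.5 by the authors' deposited table. Gal3st1, which adds sulfate to the lipid that Ugt8a makes, was at −0.38 (SE 0.219, adjusted p = 0.949) at E18.5 by the authors' deposited table.

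Counted together, the 9 genes gave a single call. At E14.5, 1 of the 8 with an adjusted p was called, and it was higher. The background was 1.21% of 13417 genes called in either direction and 0.738% called higher. Of the 8, 4 were above 0 and 4 below, with a median of −0.01 beside 0.00 over all genes tested. At E18.5, 0 of 9 were called by DESeq2 against 0.0662% of 13601 genes, while 4 (Olig1, Olig2, Pdgfra and Ugt8a) had an unadjusted p under 0.05, all lower in KI. Unadjusted p-values under 0.05 were found in 5.96% of all genes at E18.5 and in 11.5% at E14.5, where Olig2, Pdgfra and Ermn had one. At E18.5, 7 of 9 were below 0 with a median of −0.06, beside 6962 of 13601 genes below 0 and a median of 0.00. The genes were chosen with these results known, and the counts are a description.

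The KI effect itself was then compared between the stages as the older stage's log2 fold change minus the younger's, with a z test on the deposited SEs and Benjamini-Hochberg adjustment over 13106 genes. No member passed, and neither did any of the 13106 genes (0 called, 0%). An unadjusted p under 0.05 was found for 593 genes, or 4.52%, and for 3 of the 8 members, all with a negative difference. Olig2 had a difference of −0.42 (SE 0.106, 95% interval −0.63 to −0.21, adjusted p = 0.350, z test on the DESeq2 estimates of all genes). By p it ranked 2 of 13106. Ugt8a differed by −0.57 (SE 0.236, 95% interval −1.03 to −0.11, adjusted p = 0.999, same test on DESeq2 estimates) and Olig1 by −0.26 (SE 0.125, 95% interval −0.51 to −0.02, adjusted p = 0.999). For Ermn the difference was −0.47 (SE 0.246, 95% interval −0.95 to 0.01), so a difference between the stages is not shown, and the interval reaches to a large one. Sox10, Gpr17, Pdgfra and Cspg4 had intervals that include 0.

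**Figure D3:**
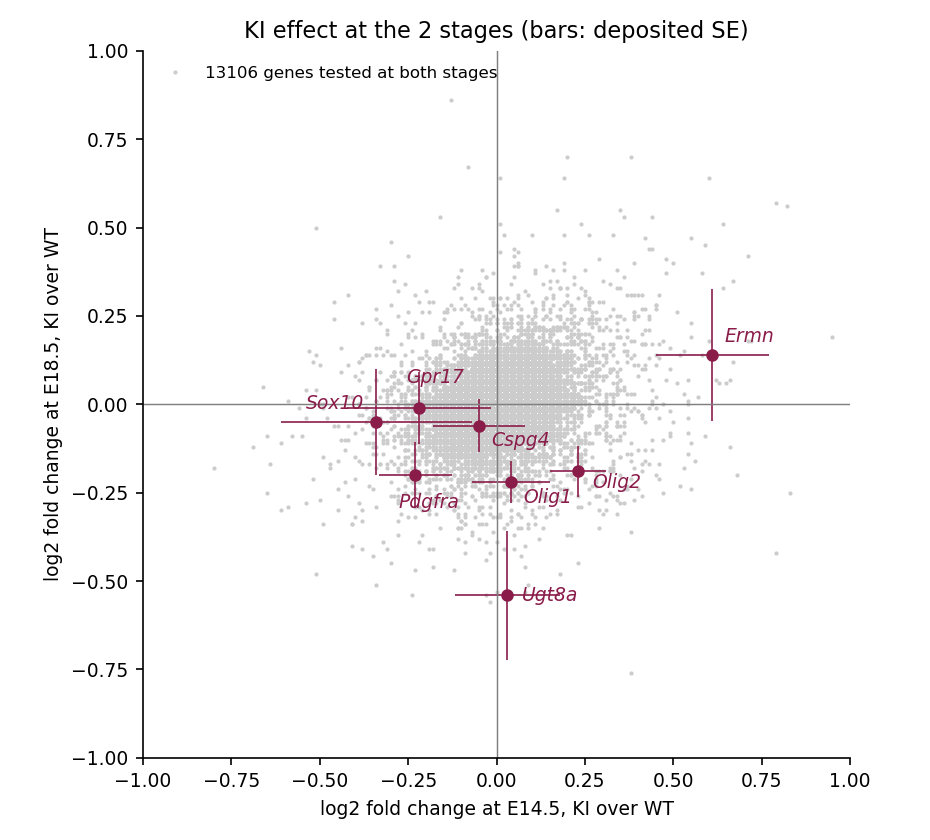
Log2 fold change at E14.5 (horizontal) against that at E18.5 (vertical), KI over WT. Grey points are the 13106 genes tested at both stages, 5 of which lie outside the axes, and red points are the 8 lineage genes tested at both, with the deposited SE as bars. Ermn lies to the right at 0.61, Ugt8a at the bottom at −0.54, and Olig2 in the quadrant of higher at E14.5 and lower at E18.5.

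The wider lineage, 110 further genes grouped by role, held a single call, 1 of 83 tested at E14.5, which is near the 1.21% of all genes called. Of the 83, 45 were above 0 and 38 below (median 0.02), and 14 were higher and 8 lower at an unadjusted p under 0.05, where 11.5% of all genes had one. Of 86 tested at E18.5, 34 were above 0 and 52 below (median −0.02), and none was called by DESeq2, with 2 higher and 2 lower at an unadjusted p under 0.05, against 5.96% of all genes. The called gene was Id2, an inhibitor of basic helix-loop-helix factors that binds OLIG proteins and delays differentiation. It fell at E14.5, from an implied count of 2731 in WT to 2276 in KI, with −0.26 (SE 0.0580, adjusted p = 0.00205) by the authors' deposited table. The call ended with Wald statistics rescaled to their own spread (adjusted p = 0.0680). At E18.5 it was at 0.01 (SE 0.0466) by the authors' deposited table. Among the other inhibitors Id4 was at 0.15 (SE 0.0492, adjusted p = 0.0834), the Wnt feedback gene Axin2 at 0.15 (SE 0.0536, adjusted p = 0.145) and Sox5, which restrains differentiation, at −0.12 (SE 0.0371, adjusted p = 0.0605) at E14.5 by the authors' deposited table. At the same stage 10 of the 15 inhibitors were above 0, with a median of 0.08.

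Factors that specify the lineage had a median of 0.08 at E14.5 and −0.03 at E18.5, and none of the 10 tested at either stage was called. At E14.5 the authors' deposited table gives Nkx2-1, a regulator of the ventral progenitor zone, 0.43 (SE 0.157, adjusted p = 0.173). Zeb2, a repressor of inhibitory signals in differentiating oligodendrocytes, was at −0.11 (SE 0.0363, adjusted p = 0.0878) by the authors' deposited table. Sonic hedgehog itself (Shh) was at 0.35 (SE 0.172, adjusted p = 0.405) and, later, 0.55 (SE 0.244, adjusted p = 0.770), and its receptor and target Ptch1 was at 0.18 (SE 0.0739, adjusted p = 0.268) and 0.11 (SE 0.0604, adjusted p = 0.906), in the authors' deposited tables.

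Progenitor genes were above 0 in 10 of 23 at E14.5 (median −0.04) and in 10 of 25 at E18.5 (median −0.05). The authors' deposited table for E14.5 has Etv5, a target of growth factor signalling, at −0.19 (SE 0.0706, adjusted p = 0.194) and the growth factor receptor Egfr at −0.33 (SE 0.178, adjusted p = 0.462). At E18.5 the lowest value among them was that of Matn4, a matrix protein of progenitors, at −0.83 (SE 0.309, p = 0.00703, adjusted p = 0.593, DESeq2) by the authors' deposited table. Of the committed-cell genes tested, Bcas1, a marker of cells beginning to myelinate, stood highest at E14.5, at 0.71 (SE 0.266, p = 0.00740, adjusted p = 0.190, DESeq2), and was at 0.18 (SE 0.161) at E18.5 by the authors' deposited table. Myelin genes were below 0 in 10 of 14 at both stages, with medians of −0.06 and −0.02. Over all genes tested, 6736 of 13417 were below 0 at E14.5 and 6962 of 13601 at E18.5. The myelin list spans a wide range of levels, with Cntn2 at a mean normalized count of 17332 and Mag at 6.44 at E14.5. The part of cells outside the lineage in these values was not tested.

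**Figure D4:**
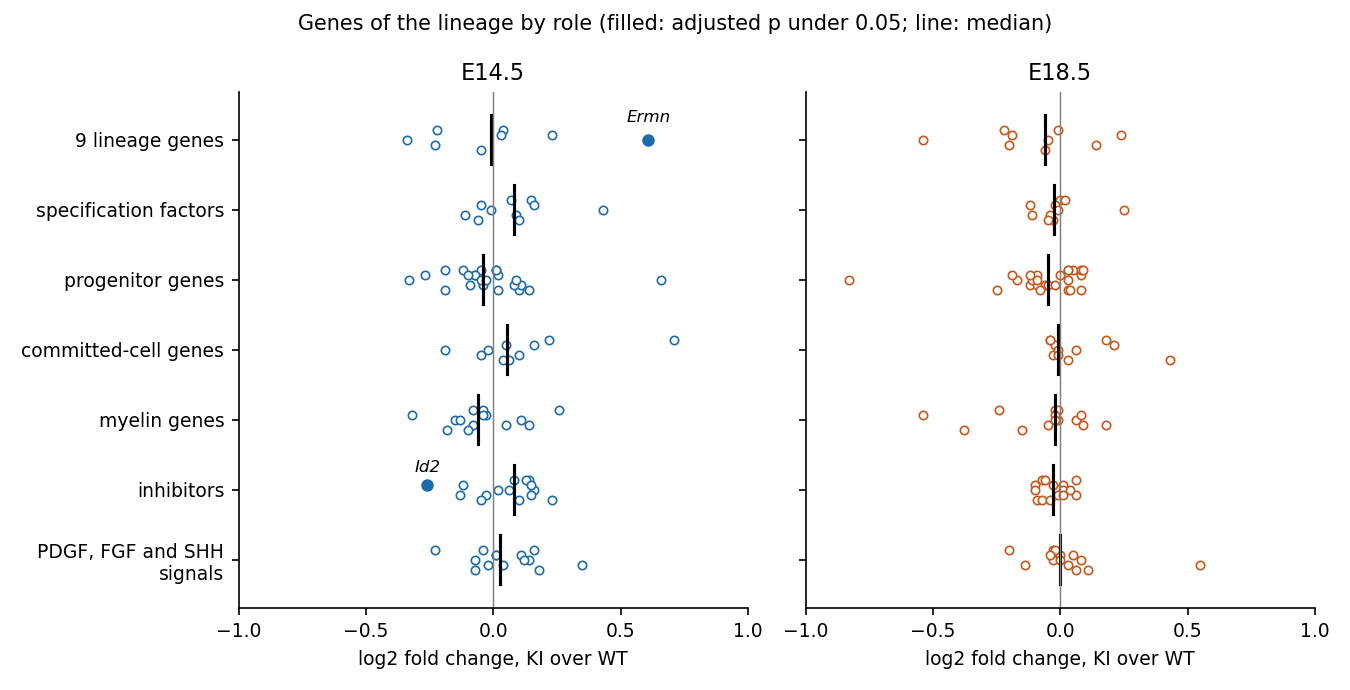
Log2 fold change of KI over WT (horizontal) for each tested gene of the lineage by role, at E14.5 (left, blue) and E18.5 (right, orange), with the median as a black line and called genes filled. Ermn at 0.61 and Id2 at −0.26 are the called genes, both at E14.5, and some genes stand in more than 1 row.

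Markers of other cells that share genes with this lineage were read beside it. Ventral progenitors, where Olig2 is made before any oligodendrocyte appears, had all 10 markers above 0 at E14.5, with a median of 0.16, and a summed implied count of 12014 in WT and 13526 in KI. Of these Dlx1, a homeobox factor of the ventral forebrain, rose at 0.17 (SE 0.0466, adjusted p = 0.0369) by the authors' deposited table. At E18.5, where Olig2 was below 0, 8 of the 9 tested ventral markers were above 0, with a median of 0.08. Radial glia markers were above 0 in 5 of 10 at E14.5, Ttyh1 being called higher at 0.13 (SE 0.0372, adjusted p = 0.0491) by the authors' deposited table, and below 0 in 8 of 10 at E18.5 (median −0.07). Astrocyte markers were below 0 in 6 of 9 at E18.5 (median −0.03). Neuronal markers were below 0 in 9 of 10 at E14.5, with Neurod6, a factor of excitatory neurons, lower at −0.20 (SE 0.0456, adjusted p = 0.00438) by the authors' deposited table, and above 0 in 7 of 10 at E18.5. Medians of endothelial and microglial markers lay between −0.01 and 0.04 at both stages, and none of these was called. Neural crest and Schwann cell markers, a list that holds Sox10 and the radial glia marker Fabp7 too, were below 0 in 3 of 5 tested at E14.5 (median −0.03) and in 5 of 5 at E18.5 (median −0.12). Their summed implied count was 8028 in WT and 7765 in KI at E14.5, and 11565 and 10594 at E18.5. The authors' deposited table for the older stage lists Fabp7 at 9680 normalized counts, and the defining crest marker Foxd3 had no row at either stage. The part of any of these cells in the values of the 9 genes was not tested.

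**Figure D5:**
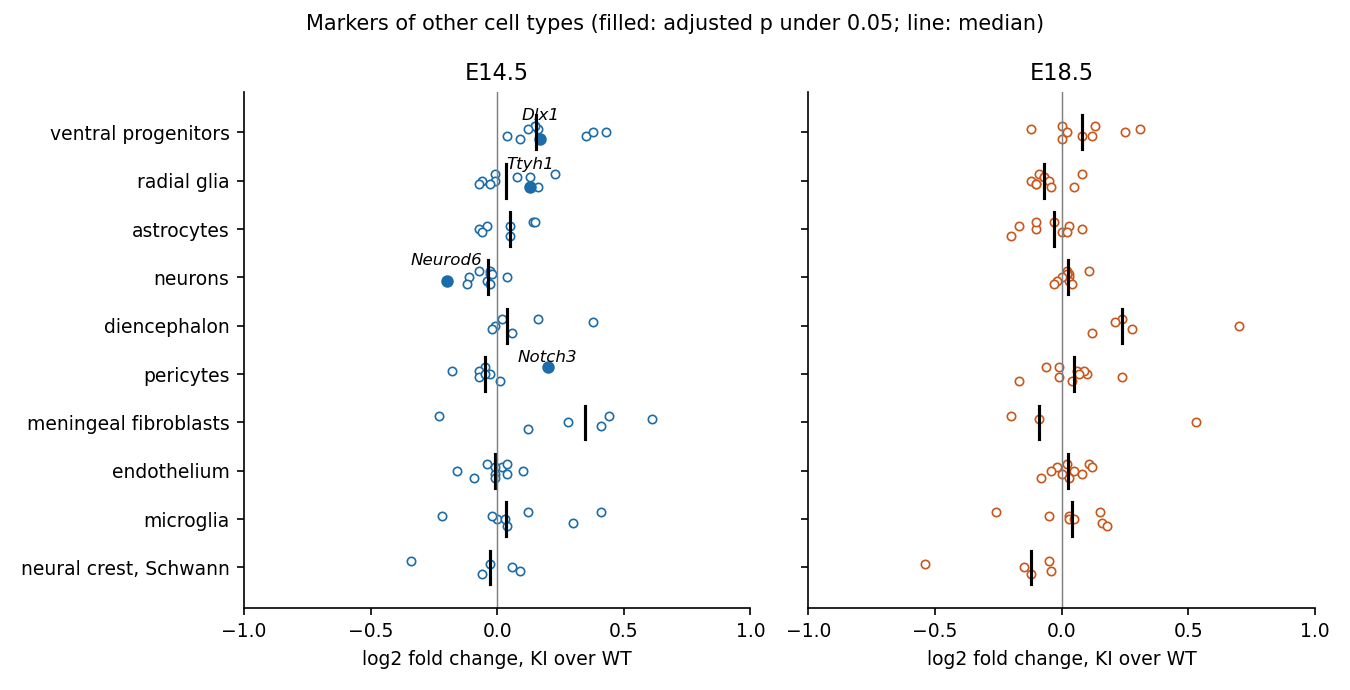
Log2 fold change of KI over WT (horizontal) for markers of 10 other cell types and regions at E14.5 (left, blue) and E18.5 (right, orange), with medians as black lines and called genes filled and named. Ventral progenitor markers lie above 0 at E14.5 (median 0.16), and called genes appear at E14.5 alone.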

How the data were processed

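RNA sequencing of forebrain was compared between Chd8 KI and WT mice at E14.5 and E18.5 (5 and 5 libraries a stage). Build mm10, DESeq2 1.26.0, featureCounts 2.0.0, HISAT2 2.1.0 and Trimmomatic 0.39 are listed, without their order, per the submitters' processing notes. Each deposited table gives, per the file headers, the mean normalized count, the log2 fold change and its SE (log2 scale), the Wald statistic (a score), and the p-value with its adjusted p-value; the authors' filter before deposit is not given in the sources used here. The E14.5 table holds adjusted p-values of 13417 genes and the E18.5 table of 13601. Genes without one stay out of counts of calls. Symbols came from a RefSeq table of GRCm38.p6, matching 95.8% and 97.5% of IDs.

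Tests across all genes were the authors' DESeq2 Wald test and, between stages, a z test with Benjamini-Hochberg adjustment (Python 3.11.15, SciPy 1.17.1). The z test and the adjustment were run on values simulated from the deposited SEs. That takes the SEs as right, so it checks the computation and neither the SEs nor the authors' Wald test. Intervals are 95% intervals from the deposited SE. Implied counts take the fold change as the ratio of group means and the groups as equal in size. The share of counting error takes normalized counts as raw counts. The members and gene lists were chosen with earlier results of these data known. Besides members and Chd8, genes named are called genes of each list, genes among the 3 lowest p-values of a lineage list at a stage, and nearest measured neighbours; Pdgfa, Pdgfc, Mag, Mog, Mbp, Mobp, Lims2, Fabp7, Lhx9, Gbx2, Sim1, Otp, and the genes with no row are named to give a level or a role. Some genes the rule names are not reported here. Alternatives were the filter on low counts, the adjustment, the spread of the Wald statistics, centring, and the scaling between tables.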

Additional observations from a re-analysis of the deposited data

How the results depend on the processing

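Ermn at E14.5 kept its call with no filter on low counts (adjusted p = 0.0226) and lost it under Benjamini-Yekutieli adjustment (0.171) and with Wald statistics divided by their spread of 1.22 (0.211). A minimum of 100 for the mean normalized count leaves it untested. The count of members called at E14.5 was therefore 0 in place of 1 under those 3 settings. Id2, the wider-lineage gene called at E14.5, lost its call with rescaled statistics (adjusted p = 0.0680), which left 0 in place of 1. At E18.5 and for the difference between stages, counts of members called were 0 under every adjustment and filter run. Over single genes, 99 values stayed as they were and 3 lost a call. The 99 hold the level ratios, which have no threshold, and otherwise mostly genes that were not called to begin with. Benjamini-Yekutieli adjustment cannot add a call, so the 99 do not measure how firm the calls are. None of these settings alters the log2 fold change of a gene, so they bear on calls and not on direction. The minimum of 100 did move the median over members at E18.5, from −0.06 to −0.12, by leaving out weaker members. At E14.5 that median went from −0.01 to 0.00. Scaling the stages by the sum of shared genes (ratio 1.09 in place of 1.11) shifts all levels alike by too little to test a direction. No paired analysis was possible because the tables hold no value per library. Leaving out single libraries was not run for the same reason. Depth per library is unknown; among members the widest SE was that of Nkx2-2, which had the lowest mean normalized count at both stages (4.87 and 35.6).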

Other observations

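Genes with the pair of Wald statistics nearest to that of a member, over the 2 comparisons and among 13106 genes, were found for 3 members. The likeness is a Euclidean distance over 2 values and is a description. Around Olig1 these were Plpp5, Mki67 and Prom1, at distances of 0.159, 0.556 and 0.639. Plpp5 was at 0.02 at E14.5 and −0.25 at E18.5 in the authors' deposited tables. The proliferation marker Mki67 was at 0.03 and −0.17, and Prom1, which encodes prominin 1, at 0.02 and −0.25, in the authors' deposited tables. None of these genes passed at either stage (adjusted p at E18.5 of 0.115, 0.266 and 0.397, DESeq2). Around Olig2 they were Cenpa, Mt2 and Pdia5, at distances of 0.198, 0.724 and 0.761. Cenpa, the centromeric histone, was at 0.16 at E14.5 and −0.21 at E18.5 in the authors' deposited tables. Mt2 was at 0.55 and −0.24, and Pdia5 at 0.39 and −0.27, in the authors' deposited tables. Their signs, like those of Olig2, follow from the way they were picked. None of them passed at either stage (adjusted p at E14.5 of 0.155, 0.223 and 0.197, DESeq2). Around Ermn they were Plec, Plod3 and Rgl2, at distances of 0.0848, 0.0945 and 0.208. Each was called higher at E14.5 (adjusted p = 0.0148, 0.0159 and 0.0163 by DESeq2 in the authors' deposited table). Those calls follow from picking genes with Wald statistics close to that of Ermn, and are no separate result.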
